A study of Homo sapiens with 2 samples.

Results

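The genes described here are EGFR, the receptor for epidermal growth factor, and 8 genes for growth factors of the same family: AREG, EREG, BTC, EPGN, HBEGF, TGFA, EGF and NRG1. These 9 of 19974 protein-coding genes on chromosomes 1 to 22 and X were taken by name, and every JUNB peak whose summit lay within 50 kb of the RefSeq span of a gene was assigned to it. JUNB, a subunit of the transcription factor AP-1, had been mapped by CUT&RUN, a method in which a nuclease tethered to chromatin by an antibody cuts out the bound DNA for sequencing. The cells were IMR-90, which are human lung fibroblasts. The 2 libraries came from untreated cells and from cells given etoposide, which traps topoisomerase II on cut DNA and can drive cultured fibroblasts into senescence. The dose and duration of etoposide are not given in the sources used here. The series concerns senescence in ageing muscle. With 1 library per condition there was no replicate check, no test of the treatment was possible, and every difference below describes these 2 libraries only.

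EGFR is a cell-surface receptor tyrosine kinase. Its ligands are made as membrane-anchored precursors, are cut free by proteases such as ADAM17, and on binding make the receptor pair up and signal through the RAS and MAP kinase pathway, which itself raises AP-1 activity. Several ligand genes, among them AREG, EREG and HBEGF, are known as genes induced quickly by growth factors and stress, and AREG is a known secreted product of senescent fibroblasts. NRG1 binds ERBB3 and ERBB4, the relatives of EGFR, rather than EGFR itself.

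On the chromosomes analysed, 32550 peaks were listed for untreated cells and 25739 for etoposide. Peaks of the 2 lists that overlapped by 1 bp or more were called shared. Peak strength is given as the pileup at the summit in fragments, solved from the deposited fold and p-value, and as the rank by the authors' -log10 q within a list, where rank 1 is the strongest. The median pileup was 15 fragments in untreated cells and 13 after etoposide. The etoposide library was estimated at 0.836 times the depth of the untreated library, and the part of this depth gap in any difference below was not tested.

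RefSeq promoter windows, which run from 250 bases before to 50 after a gene start, were matched for 8 of the 9 genes (all but NRG1), with 2 starts each for EGFR and TGFA. Of these 10 windows, 1 had a listed peak on it, at an internal start of EGFR. Of all 34789 RefSeq windows, 3.50% held an untreated summit and 1.20% an etoposide summit. The windows were searched on both strands for TGANTCA, where N is any base, and for TGACGTCA. TGANTCA includes TGACTCA and TGAGTCA, the sites AP-1 is best known to bind, but also strings with A or T in the middle. TGACGTCA is the cyclic AMP response element that JUN proteins with ATF partners can bind. Neither motif contains the other, and both read the same on either strand. The 250 bases before the start are shown for the 3 starts that held a match, with the matches in capitals, each 5′ to 3′ on the plus strand of GRCh38.p14 as given by RefSeq. They are EGFR at its internal start (chr7:55109589-55109838), EGF (chr4:109912633-109912882) and AREG (chr4:74444886-74445135).
EGFR internal start: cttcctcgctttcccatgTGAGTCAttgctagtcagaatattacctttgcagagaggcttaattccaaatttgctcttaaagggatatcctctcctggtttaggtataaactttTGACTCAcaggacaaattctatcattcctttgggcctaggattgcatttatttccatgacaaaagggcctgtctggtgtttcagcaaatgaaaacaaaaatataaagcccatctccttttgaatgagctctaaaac
EGF: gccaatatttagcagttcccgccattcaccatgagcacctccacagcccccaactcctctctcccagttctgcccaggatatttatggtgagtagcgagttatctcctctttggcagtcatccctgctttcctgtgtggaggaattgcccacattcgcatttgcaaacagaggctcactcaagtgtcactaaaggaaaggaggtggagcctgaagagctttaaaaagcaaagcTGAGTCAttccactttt
AREG: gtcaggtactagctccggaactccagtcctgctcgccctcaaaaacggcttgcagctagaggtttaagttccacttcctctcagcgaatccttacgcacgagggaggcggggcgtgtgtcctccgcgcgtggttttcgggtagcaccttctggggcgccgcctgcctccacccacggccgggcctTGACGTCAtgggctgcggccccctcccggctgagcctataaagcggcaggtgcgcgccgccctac

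The EGFR internal start held TGANTCA at 2 places, as TGAGTCA 232 bases and as TGACTCA 136 bases before the start. An untreated peak on chromosome 7 from 55109650 to 55109851 covered the start, with its summit 41 bp upstream of it and 92 bp from the middle of the TGACTCA match, which lay inside the peak. The TGAGTCA match ended 37 bp before the peak began. This peak had 17 fragments on a local background of 2.14, ranked 18988 and had no etoposide counterpart, the nearest etoposide peak being 22720 bp away. EGF held TGAGTCA 17 bases before its start and AREG held TGACGTCA 65 bases before its start, and no peak of either list overlapped these windows. The windows of EREG, BTC, EPGN, HBEGF, TGFA and the first EGFR start held neither motif and no peak. A match is a string of letters and does not show that the site was bound.

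As background for these matches, TGANTCA was present in 7.69% of 34789 promoter windows of the same length and TGACGTCA in 1.84%. Among the 285 windows with the summit of a shared untreated peak, 29.1% held TGANTCA (95% Wilson interval 24.2% to 34.6%). Among the 933 windows with the summit of an untreated peak without counterpart, the kind of peak found at the EGFR internal start, 9.22% did (7.52% to 11.2%). Windows with an etoposide summit held TGANTCA in 32.3% of 418 (28.0% to 36.9%). For TGACGTCA the share was 5.36% of the windows with an untreated-only summit (4.09% to 7%), 2.81% of those with a shared untreated summit (1.43% to 5.44%) and 2.87% of those with an etoposide summit (1.65% to 4.95%). The windows with untreated-only summits thus held TGANTCA about as often as all windows and TGACGTCA more often. The intervals cover counting error only.

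**Figure D1:**
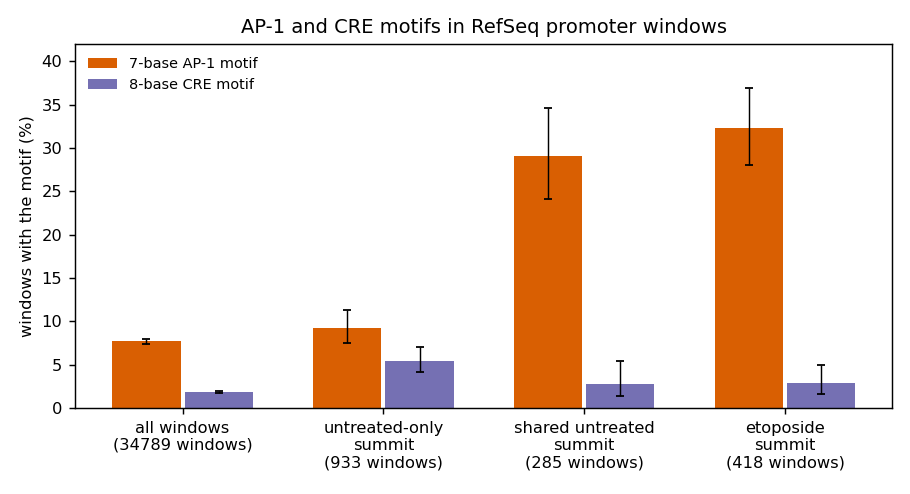
Percentage of RefSeq promoter windows of 300 bases that held the 7-base AP-1 motif or the 8-base cyclic AMP response element (CRE). Sets are all windows and windows with an untreated-only, a shared untreated or any etoposide JUNB summit, the last not split by sharing. Bars show the share and error bars its 95% Wilson interval. The AP-1 motif was taken as TGANTCA, with any base at N. It was in 29.1% of windows with a shared untreated summit, 9.22% with an untreated-only summit and 7.69% of all windows.

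Across the 9 genes there were 54 untreated and 37 etoposide peaks, each counted once, in windows that together spanned 2445 kb. That is 2.21 untreated and 1.51 etoposide peaks per 100 kb, where the windows of all protein-coding genes held 1.36 and 1.02. Of the untreated peaks, 24 were shared (44.4%, 95% Wilson interval 32.0% to 57.6%), against 51.0% of the whole list. Of the etoposide peaks, 25 were shared (67.6%, 51.5% to 80.4%), against 64.8% of the whole list. Both intervals hold the value of the whole list. When an overlap of at least 50% of both peaks was required, 15 peaks of each list remained shared (27.8% and 40.5%), against 33.9% and 42.9% of the whole lists. Merged, the peaks formed 66 regions, of which 24 were shared, 30 were listed in the untreated library alone and 12 in the etoposide library alone. The ratio of etoposide to untreated peaks was 0.685, against 0.753 in the windows of all protein-coding genes and 0.791 in the whole lists.

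A peak of each list lay within 50 kb of 7 of the 9 genes, and the same 7 had a shared peak. In the whole annotation 72.0% of protein-coding genes had an untreated peak in this window, 62.6% an etoposide peak and 51.1% a shared peak, and a count of 7 out of only 9 genes is not read as different from these backgrounds. BTC and TGFA had no peak of either list, as had 23.9% of protein-coding genes. There were more untreated than etoposide peaks at 5 members (AREG, EREG, EPGN, HBEGF and NRG1), against 45.6% of genes, and more etoposide than untreated peaks at EGFR alone, against 12.9%. EGF had 3 of each. The plot of regions per gene shows these counts beside the window lengths, which differ because the gene spans differ from 8.32 kb (EPGN) to 1135 kb (NRG1).

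**Figure D2:**
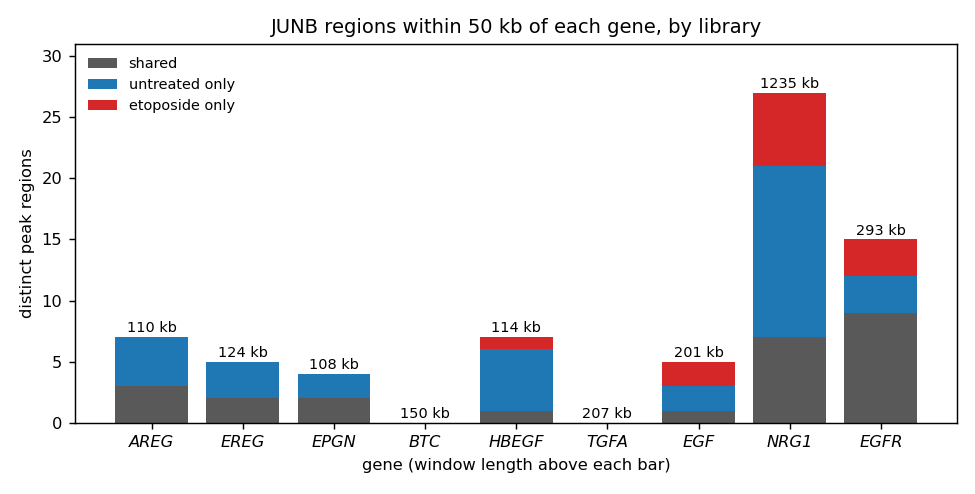
Number of distinct JUNB regions with a summit within 50 kb of each gene, stacked by whether the region was listed in both libraries, the untreated library alone or the etoposide library alone; the length of the window stands above each bar. EGFR had 9 shared regions of 15, NRG1 7 of 27, and BTC and TGFA had none.

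EGFR (chromosome 7, 55019017 to 55211628) had the most shared regions of the family. It had 12 untreated and 13 etoposide peaks, of which 9 and 10 were shared, in 15 regions. Its untreated peaks were shared in 75% (95% Wilson interval 46.8% to 91.1%), whereas 15 of the 42 untreated peaks of the 8 ligand genes were, 35.7% (23% to 50.8%). These intervals overlap, and peaks of 1 gene share their locus, so no test was made of this difference. The untreated peaks near EGFR also had more fragments, with a median of 18.5 against 14 for the ligand genes. In the etoposide list the same comparison gave shared shares of 76.9% (49.7% to 91.8%) and 62.5% (42.7% to 78.8%) and medians of 15 and 14.5 fragments, so EGFR and the ligand genes stood closer together there. NRG1 gave 21 of the untreated and 13 of the etoposide ligand peaks. Without it, 38.1% of 21 untreated peaks (20.8% to 59.1%) and 72.7% of 11 etoposide peaks (43.4% to 90.3%) were shared at the other 7 ligand genes. The extra etoposide peak at EGFR came from a single wide untreated peak that met 2 etoposide peaks. With an overlap of at least 50% of both peaks required, 4 peaks of each list stayed shared at EGFR, 6 at NRG1 and 1 at AREG, so the lead of EGFR rests on the overlap of 1 bp or more.

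With 9 shared regions EGFR ranked 74 among the 19974 genes, and 108 genes (0.541%) had as many. Gene length enters this rank. Of the 1470 genes at least as long as EGFR, 100 had as many shared regions (6.80%). NRG1, the longest member, had 7 shared regions, as many as 277 genes (1.39%), but 13 of the 51 genes at least as long had that number (25.5%). AREG, a gene of 9.87 kb, had 3 shared regions in its window of 110 kb, 1 of them inside the gene. That number was reached by 2597 genes (13%), and by 2367 of the 14392 genes at least as long (16.4%). EREG and EPGN had 2 each, and HBEGF and EGF 1 each.

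**Figure D3:**
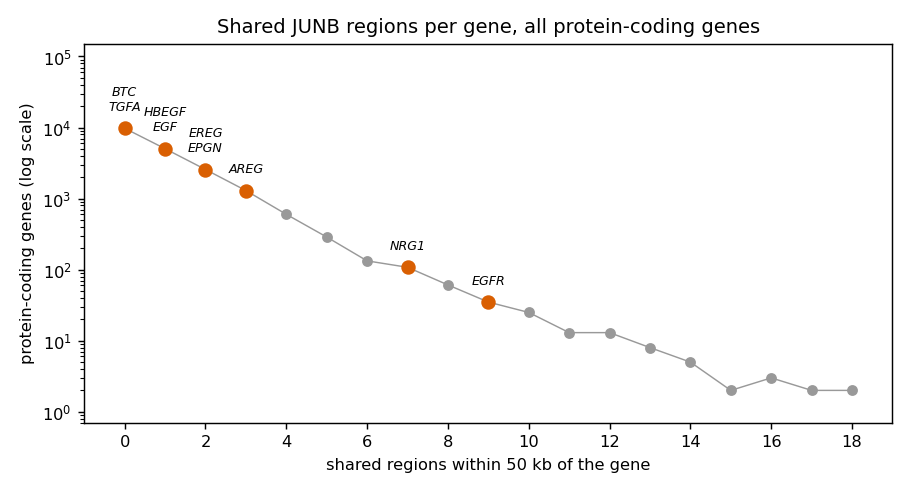
Number of protein-coding genes (log scale) by the number of shared JUNB regions within 50 kb, with the members marked in orange. EGFR stood at 9 shared regions and NRG1 at 7, in the upper tail, and the other members stood between 0 and 3.

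The highest-ranked member peak of the untreated list lay inside EGFR, 46.7 kb past the first start, from 55065313 to 55066157. It had 67 fragments on a local background of 6.28 and ranked 419. Its etoposide counterpart, from 55065068 to 55066103, had 49 fragments on a background of 4.16 and ranked 391, and the summits were 14 bp apart. These backgrounds were high: only 0.525% of untreated and 0.66% of etoposide peaks had one as high or higher. A second shared region inside the gene, 67.6 kb past the start, had 27 untreated fragments and 24 etoposide fragments (ranks 4373 and 2291) with summits 5 bp apart.

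The highest-ranked etoposide peak of the family lay 49.5 kb upstream of EGFR, from 54969423 to 54969679, between annotated genes. It had 32 fragments on a background of 1.15 and ranked 383. The untreated counterpart, from 54969440 to 54969684, had 29 fragments on a background of 1.11 and ranked 1420, and the summits were 6 bp apart. It lay just inside the 50 kb window. The first untreated peak outside the window was 114 kb from the gene and had 11 fragments, and the first etoposide peak outside was 115 kb away and had 8.

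The wide untreated EGFR peak 114 kb past the start, from 55132650 to 55133865, had 48 fragments on a local background of 7.57. It met 2 etoposide peaks with 21 and 19 fragments on backgrounds of 3.67 and 3.44. The ratio of etoposide to untreated fragments was 0.438 for the better-overlapping pair, and that of the backgrounds was 0.484. These backgrounds were solved from the same deposited values and may include the fragments of the peak itself. They are therefore not read as a separate measure of the surroundings. Of the other shared regions, 1 lay 33.2 kb upstream of the gene in the untreated list, with 17 untreated and 12 etoposide fragments. Another 3 lay in the last 25.4 kb of the gene, 1 of them also inside the antisense gene EGFR-AS1, and 1 lay beyond the gene end, inside the non-coding gene ELDR. These 4 had 7 to 24 untreated and 9 to 15 etoposide fragments. Exon and intron positions were not used here, so peaks inside a gene are given by its span alone.

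The 6 EGFR regions listed in 1 library alone had 8 to 20 fragments. Beside the peak at the internal start, the untreated list had peaks 33.7 and 54.3 kb past the first start with 20 and 14 fragments. The etoposide list had peaks 34 and 55.6 kb past the start with 16 and 8 fragments, and 1 peak 23 kb upstream with 8. The untreated peak from 55052379 to 55052889 and the etoposide peak from 55052950 to 55053154 were only 60 bp apart, so this place counts as unshared only because the peaks do not touch.

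**Figure D4:**
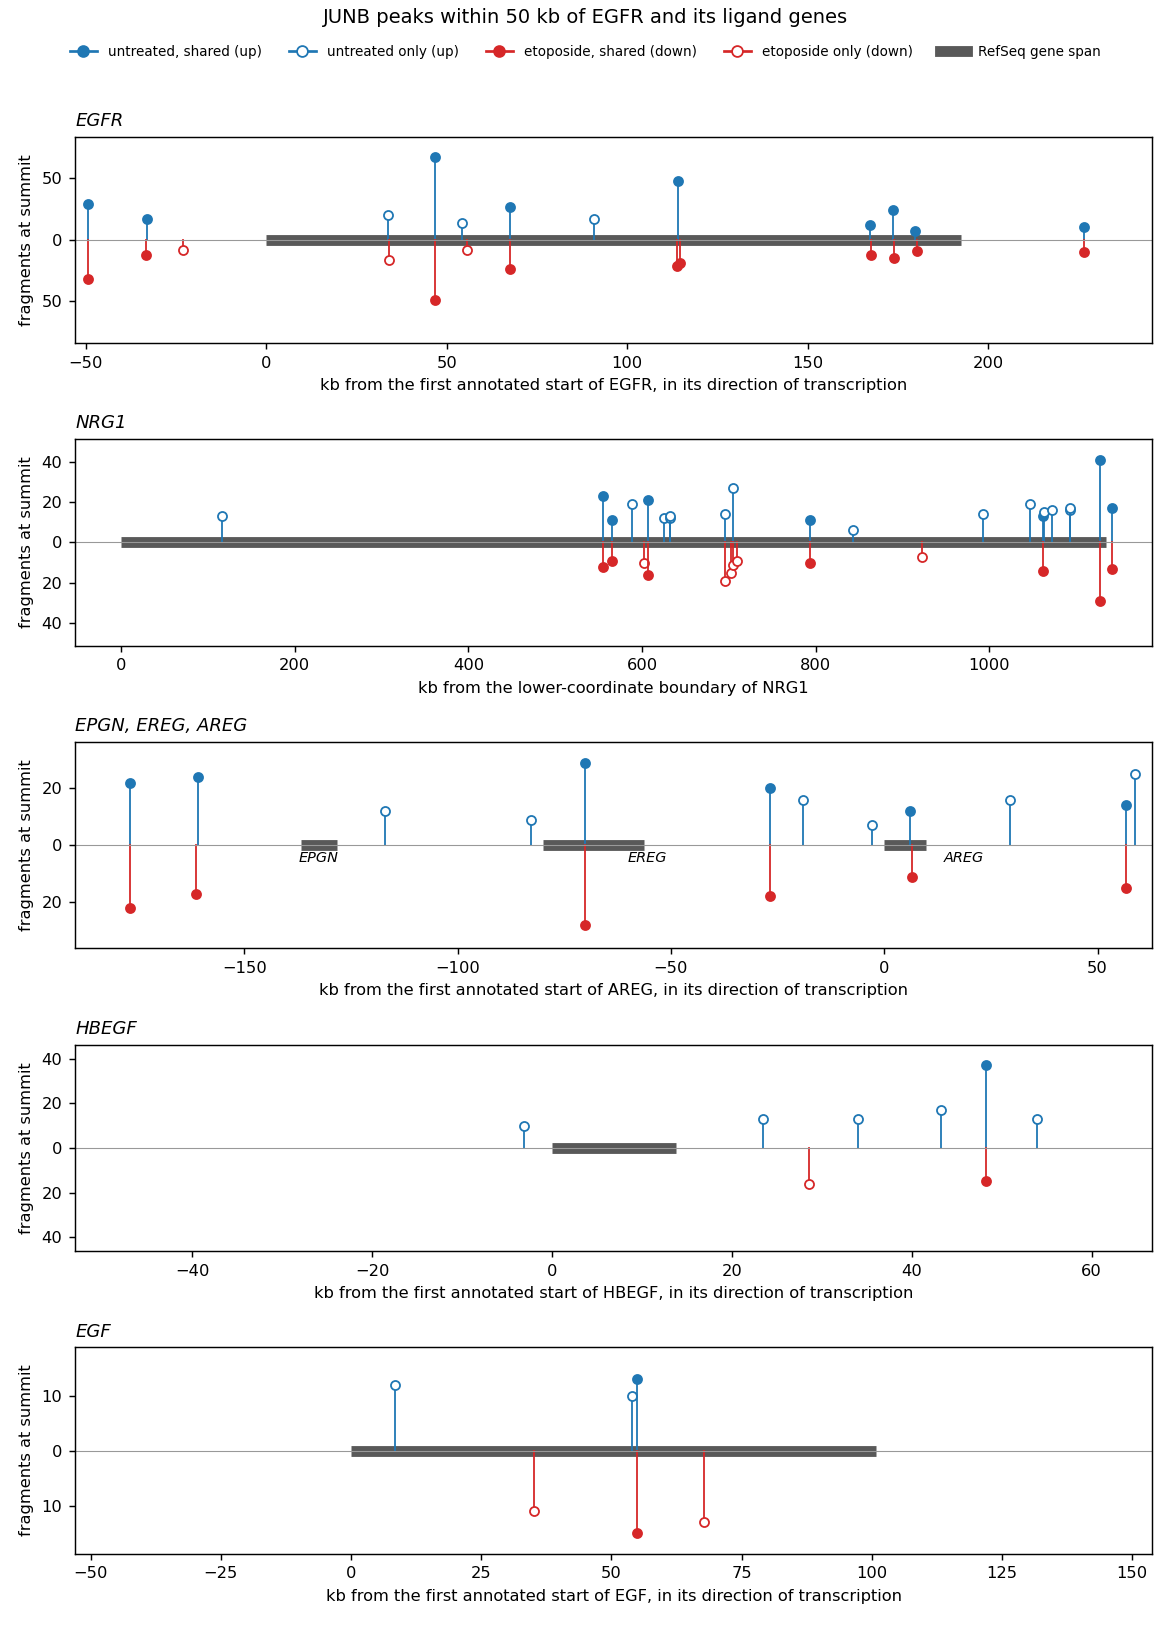
Summits of untreated (blue, upward) and etoposide (red, downward) JUNB peaks along EGFR and the ligand genes that had peaks, with stem height giving the fragments at the summit, filled symbols for shared peaks and open symbols for peaks of 1 library; grey bars are RefSeq gene spans and the x axis is distance in kb. Filled pairs dominate at EGFR, while open blue symbols dominate at HBEGF and over much of NRG1.

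AREG, EREG and EPGN sit side by side on chromosome 4, with BTC 290 kb beyond AREG. The window of EREG overlaps those of EPGN and AREG, so that 4 untreated peaks and 1 etoposide peak counted for 2 genes each. The window of BTC overlaps none of them. AREG encodes amphiregulin, EREG epiregulin, EPGN epigen and BTC betacellulin. Counted once, the cluster had 12 untreated and 6 etoposide peaks. All 6 etoposide peaks were shared (95% Wilson interval 61.0% to 100%), and this interval holds the 64.8% of the whole list. Of the 12 untreated peaks, 6 were shared and 6 were not (50% shared, 25.4% to 74.6%), against 51.0% shared in the whole list. With an overlap of at least 50% of both peaks required, 3 of the 6 etoposide peaks stayed shared (50%), against 42.9% of that list. Of the 12 untreated peaks, 3 then stayed shared (25%), against 33.9% of that list. These small counts are not read as different from the whole lists.

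The place with the most fragments in both libraries lay inside EREG (74365145 to 74388749), 9.95 kb past its start in the untreated list. The untreated peak, from 74374504 to 74375240, had 29 fragments and ranked 4370, and the etoposide peak, from 74374655 to 74375248, had 28 fragments and ranked 1971. A shared peak 40.2 kb upstream of EPGN (74308470 to 74316789), inside the neighbouring gene MTHFD2L, had 22 fragments in each library, with ranks of 3991 and 2407 and summits 2 bp apart. A second shared peak inside MTHFD2L, 24.3 kb upstream of EPGN in the untreated list, had 24 untreated and 17 etoposide fragments. EPGN itself held no summit of either list.

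AREG (74445136 to 74455005) had 3 shared places. A peak between EREG and AREG, 26.8 kb upstream of AREG, had 20 untreated fragments and 18 etoposide fragments. One inside AREG, 6.09 kb past its start in the untreated list, had 12 and 11, with summits 312 bp apart. The last, 46.9 kb beyond the gene end, had 14 and 15. The 2 libraries thus gave similar fragment numbers at each of these places, within the exact Poisson intervals of the counts (12.2 to 30.9 and 10.7 to 28.4 for the first). The strongest AREG peak without counterpart was untreated, from 74503875 to 74504110, 49.0 kb beyond the gene end, with 25 fragments and rank 6281.

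HBEGF (chromosome 5, 140332843 to 140346603, on the minus strand), the gene of heparin-binding EGF-like growth factor, had 6 untreated and 2 etoposide peaks, of which 1 pair was shared. No summit lay inside the gene. The shared place lay 34.5 kb beyond the gene end, inside PFDN1, a prefoldin subunit gene. In the untreated list it ran from 140298014 to 140298725, with 37 fragments on a local background of 2.97 and rank 2016. In the etoposide list it had 15 fragments on a background of 2.17 and ranked 19469. The summits were 8 bp apart. The exact Poisson 95% intervals of the raw counts were 26.1 to 51.0 and 8.40 to 24.7 and did not overlap. They were not adjusted for the estimated depth ratio of 0.836, so nothing is read from this gap.

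The ratio of etoposide to untreated fragments at this place was 0.405, the lowest of the 24 shared pairs near the members. Of the 16178 shared pairs of the whole series, 2.68% had a ratio as low or lower. As the lowest of 24 pairs, it is not read as unusual. The median ratio of all pairs was 0.771, with quartiles of 0.619 and 1. The local background ratio there was 0.732. The only other etoposide peak near HBEGF, from 140317882 to 140318096, had 16 fragments, ranked 6022 and had no untreated counterpart, the nearest untreated peak being 4954 bp away. The 5 untreated peaks without counterpart had 10 to 17 fragments.

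**Figure D5:**
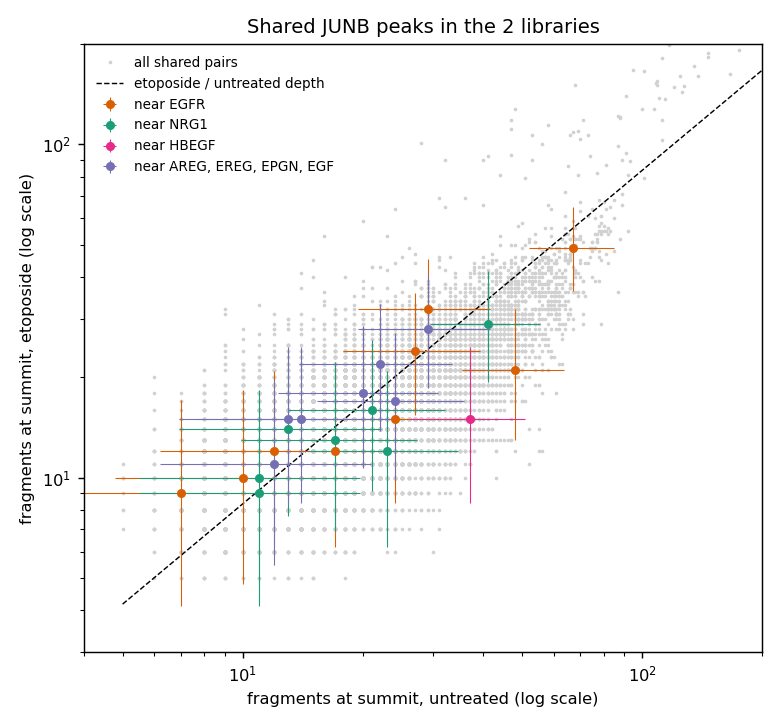
Fragments at the summit in the untreated (x axis) and etoposide (y axis) library, both on log scales, for the 24 shared pairs near the 9 genes (coloured, with exact Poisson 95% intervals) and all 16178 shared pairs (grey); the dashed line is the estimated depth ratio of 0.836. The HBEGF pair, at 37 and 15 fragments, lies farthest below the line, and most other pairs lie near it.

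Over the 24 shared pairs near the members the median ratio of fragments was 0.894 (lowest 0.405, highest 1.29), and the etoposide count was the lower in 16 of 24 (66.7%), against 74.1% of all pairs. After HBEGF, the next lowest ratios were those of the wide EGFR peak and of an NRG1 peak at 0.522, with 23 and 12 fragments. The highest was 1.29 at a weak EGFR pair with 7 and 9 fragments. Summits of the member pairs were a median of 64 bp apart, against 40 bp for all pairs, and 10 of 24 were within 50 bp (41.7%), against 58.4% of all pairs.

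Of the 8 members with a start in the promoter table, AREG, EREG and HBEGF had an untreated-only summit a few kb upstream of it, and the other 5 had none between 2 and 4 kb. It lay 2.97 kb upstream at AREG, 2.74 kb at EREG and 3.07 kb at HBEGF, and none of the 3 had an etoposide counterpart. These were among the weakest peaks of the list, with 7, 9 and 10 fragments and ranks of 30537, 31182 and 31270 of 32550. An untreated-only summit between 2 and 4 kb upstream of a RefSeq start was found for 1.46% of the 15812 protein-coding genes with a promoter window, and an etoposide-only summit for 0.772%. The 3 genes and the distance range were picked after the values had been seen, so nothing is read from this count against those shares. All 3 peaks had a -log10 q below 5.

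EGF (chromosome 4, 109912883 to 110013766), which encodes the growth factor that names the family, had 3 untreated and 3 etoposide peaks, all inside the gene. A single place was shared, 54.9 kb past the start in the untreated list, with 13 untreated fragments and 15 etoposide fragments. The strongest untreated peak, 8.41 kb past the start, had 12 fragments and rank 15372, and the strongest etoposide peak, 67.8 kb past the start, had 13 fragments and rank 10846. Neither had a counterpart, and none of the 6 peaks was in the strongest 10% of its list.

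NRG1, the neuregulin 1 gene (chromosome 8, 31639245 to 32774046), had 21 untreated peaks, the most of the family, and 13 etoposide peaks, as many as EGFR, but at 1.70 and 1.05 per 100 kb of window its density was below that of EGFR, at 4.10 and 4.44. All but 1 of these 34 peaks lay at least 550 kb from the lower-coordinate boundary. The exception was an untreated peak 116 kb from that boundary with 13 fragments. There were 7 shared pairs, 14 untreated-only and 6 etoposide-only peaks.

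The strongest NRG1 place in both libraries was shared and lay 7.68 kb inside the higher-coordinate boundary in the untreated list. The untreated peak, from 32765988 to 32766722, had 41 fragments and ranked 952, and the etoposide peak, from 32766219 to 32766656, had 29 fragments and ranked 1687. A shared peak from 32194103 to 32194399 had 23 untreated fragments (rank 3008) and 12 etoposide fragments. The strongest NRG1 peak without counterpart was untreated, from 32343675 to 32343953, with 27 fragments and rank 3593. An etoposide peak with 11 fragments was 153 bp from its edge. The strongest etoposide peak without counterpart, from 32334607 to 32334887, had 19 fragments, and an untreated peak with 14 fragments was 133 bp from it.

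BTC (chromosome 4, 74744759 to 74794523) and TGFA (chromosome 2, 70447284 to 70553826), which encodes transforming growth factor alpha, had no listed peak in windows of 150 and 207 kb. The nearest untreated summit was 84.6 kb from BTC and 154 kb from TGFA. The nearest etoposide summit was 61.6 kb from BTC and 92.7 kb from TGFA. Of the 3111 protein-coding genes at least as long as TGFA, 411 had no peak of either list within 50 kb (13.2%). A missing entry means that no signal passed the threshold of the list, and the lowest number of fragments in a member peak was 6 untreated and 7 etoposide.

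Of the peaks near the members, 5 of 54 untreated (9.26%) and 6 of 37 etoposide peaks (16.2%) were in the strongest 10% of their lists. All 11 were shared. The shared share among the strongest 10% of the whole lists is not given here, so nothing is read from this. The 5 untreated ones were at EGFR (2), NRG1 (2) and HBEGF, and the 6 etoposide ones at EGFR (3), NRG1, EREG and EPGN. Shared peaks near the members had a median of 20.5 untreated and 15 etoposide fragments, against 19 and 14 in the whole lists. Peaks of 1 library had 14 and 11, against 12 and 10.

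Other genes of the pathway were counted in the same window. Of 31 such genes, 28 had an untreated peak, 28 an etoposide peak and 25 a shared peak, and HRAS alone had neither. The shares in the whole annotation were 72.0%, 62.6% and 51.1%, but the pathway genes were longer, with a median span of 91.0 kb against 24.2 kb, and these shares are not matched for length. Among the other receptors, ERBB4 had 4 untreated and 3 etoposide peaks, ERBB3 had 5 and 3, and ERBB2 had 0 and 1, the last within 1 kb of an annotated start. All 3 other neuregulin genes had peaks of both lists, and NRG2 and NRG3 had 1 shared region each. The 4 shedding genes, the proteases ADAM10 and ADAM17 and the iRhom genes RHBDF1 and RHBDF2 that assist ADAM17, all had a shared region, with the most, 4, at ADAM17.

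Of the 15 adaptor and relay genes, which carry the signal from the receptor to MAP kinase, 11 had a shared region, with 3 each at SOS1 and GAB1. SHC1, SOS2 and MAP2K1 had a summit of each list within 1 kb of a start, where such summits were found at 17.5% (untreated) and 6.61% (etoposide) of protein-coding genes with a promoter window. GAB1 had 3 untreated and 8 etoposide peaks. All 6 negative regulators had a shared region, against 51.1% of protein-coding genes, and their median span was 112 kb. ERRFI1, whose product binds and inhibits EGFR, led with 5 shared regions, from 8 untreated and 9 etoposide peaks around a gene of 14.6 kb. CBLB, a ubiquitin ligase that marks the receptor for degradation, had a summit of each list at a start, and PTPN1, a phosphatase, had an untreated one only, with 9 untreated and 2 etoposide peaks in its window.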

How the data were processed

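The data were 2 peak lists in narrowPeak layout, 1 per library, used as the authors deposited them. Per the submitters' processing notes, Bowtie2 and MACS2 were used and the builds mm10 and hg38 were named; versions and settings are not given in the sources used here. Contig names were those of GRCh38. The deposited fold is the ratio of summit signal to local background, the deposited -log10 p and -log10 q are the caller's significance at the summit, and the deposited score is 10 times -log10 q, without decimals. They were used only within their own list. No control library was used here.

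Fragments at the summit and local background were solved from the deposited fold and p with a pseudocount of 1 and a Poisson upper tail; a whole number fitted 100% of peaks within 0.001. The method was checked on simulated data. Relative depth came from the lowest backgrounds and smallest widths (202 and 189 bp), an assumption about the caller. Gene spans came from RefSeq GRCh38.p14; gene starts and strands came from its promoter table, which covered 15812 protein-coding genes; peaks were counted from 1, on chromosomes 1 to 22 and X. Python 3.11.15, pandas 2.3.3 and scipy 1.17.1 were used. Groups followed the treatment label. Members, pathway lists and windows were chosen with earlier results of these data known. All 9 members are named. Peaks are given by position where they are shared and in the strongest 10% of a list, strongest for a gene in a list or without counterpart, or within 1 kb of a start; other peaks named were chosen after their values were seen. Wilson and exact Poisson intervals (95%) cover counting error only. Alternatives were other windows, stricter lists, other overlap criteria and assignment to the nearest gene.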

Additional observations from a re-analysis of the deposited data

How the results depend on the processing

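Windows of 10 and 100 kb, a -log10 q of at least 5, and counting only peaks whose nearest protein-coding gene is a member kept the number of peaks near the 9 genes within 1.5 times. Counts for single genes were less stable. Over all alternatives 66 of them left that range and 114 did not. The 114 include counts for BTC and TGFA that were 0 in both settings and were taken as unchanged. At 10 kb EPGN lost its peaks of both lists and HBEGF its etoposide and shared peaks, and 5 members kept a shared peak. Among the 10000 strongest peaks of each list there were 17 untreated and 13 etoposide peaks, of which 58.8% of the untreated were shared. With overlap of at least 50% of both peaks required, the shared shares fell to 27.8% and 40.5%. A gap of up to 500 bp moved neither share out of its interval. At 100 kb BTC gained 2 untreated and 3 etoposide peaks and TGFA 1 etoposide peak. No paired analysis was possible because each condition had 1 library. A peak missing from a list may lie under its threshold, and the part of depth in this was not tested.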
